A study of Homo sapiens with 4 samples.

Results

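The 6 genes described here encode 4 proteases and 2 protease inhibitors, read across 4 cultures of human prostate cancer cells with 1 array each. They are the interstitial collagenase MMP1, the membrane-type metalloproteinases MMP14 and MMP16, the lysosomal protease CTSB, and the inhibitors TIMP1 and TFPI2. They were chosen by name from 14006 genes with a named probe, after their differences between these arrays were known, so their values are a description and carry no test. Each of the 6 had 1 probe among the 37934 of the array.

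The line PC3 was derived from a metastasis to bone and does not depend on androgen, whereas LNCaP, derived from a metastasis to a lymph node, does. Selection of PC3 cells with IIH6C4, an antibody to the laminin-binding glycan, gave the cultures PC3-H, whose source name calls it high for the glycan, and PC3-L, called low. LNCaP is labelled high for the glycan. LNCaP-AI is labelled low and is named as LNCaP made androgen-independent in charcoal-stripped serum, with a description that also mentions medium conditioned by perineural cells. All cultures are labelled as grown in RPMI medium with fetal bovine serum and antibiotics. PC3-H and LNCaP are labelled low, and PC3-L and LNCaP-AI high, for motility and invasion. The free-text descriptions give the glycan level of the PC3 pair the other way round, so the arrays are named here by their titles. No culture had a replicate, so no difference has an error or a p-value. The number of arrays limits the precision.

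Matrix metalloproteinases are zinc enzymes made as inactive precursors that become active when the propeptide is removed. MMP1 cuts fibrillar collagen in the extracellular space, while MMP14 and MMP16 are anchored in the plasma membrane and act at the cell surface, MMP14 also as an activator of the MMP2 precursor. TIMP1 blocks most secreted metalloproteinases but is a poor inhibitor of MMP14. Cathepsin B, encoded by CTSB, is a cysteine protease of lysosomes that tumour cells can also release, and TFPI2 is a Kunitz-type inhibitor of serine proteases such as plasmin that is deposited in the matrix. Matrix proteolysis of this kind has long been studied in prostate cancer for its part in invasion and in growth in bone.

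The line markers were read first, because 1 array goes against its line label. KLK3, the gene of prostate-specific antigen, read 1781 on LNCaP and 61.2 on the LNCaP-AI-labelled array, and the PC3 arrays lay at 59.0 (PC3-H) and 63.4 (PC3-L). FOLH1, the prostate-specific membrane antigen gene, was 944 on LNCaP and between 23.0 and 24.2 on the other 3 arrays. The receptor genes CD44 and AXL were 23.9 and 47.4 on LNCaP and 297 and 1015 on the LNCaP-AI-labelled array, beside 239 and 609 (PC3-H) and 318 and 900 (PC3-L). The filament gene VIM, at 1216 on the LNCaP-AI-labelled array, was near PC3-L (896), while LNCaP (65.1) and PC3-H (104) were low. At these 5 markers the LNCaP-AI-labelled array lies near PC3-L and far from LNCaP. The chemokine gene CXCL8 was 46.9 on it, beside 22.3 on LNCaP and 302 and 497 on the PC3 arrays. LCN2, a PC3 marker that differs within the PC3 pair (1881 on PC3-H, 46.1 on PC3-L), was 46.0 on it and 64.5 on LNCaP. Because the array goes against its label, the comparisons of the 6 genes and of each list with LNCaP are also given with PC3-L in its place, called the substituted pair. Medians of the arrays lay between 39.8 and 41.2, and the lowest value on any array was 17.6, so a gene near 20 to 30 is at the dim end and its fold may be understated.

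Of the 6 genes, 5 were past 2-fold higher on PC3-L than on PC3-H and 0 lower, beside 8.58% of 11126 genes higher and 3.77% lower. Likewise 5 were past 2-fold higher on the LNCaP-AI-labelled array than on LNCaP and 0 lower, beside 5.45% and 5.13% of 11135 genes. With PC3-L in place of that array, 5 were higher and 0 lower than on LNCaP, beside 7.24% and 4.51% of 11111 genes. Since the genes were picked with these differences in view, nothing is read from the counts. All 6 passed the filter on dim genes in these comparisons, which asked that the higher value of a pair reach the 40th percentile of its array. The median log2 difference over the 6 was 2.05 for the PC3 arrays and 4.28 for the LNCaP pair, beside −0.020 and 0.0048 over all genes, and 3.78 in the substituted pair, beside −0.014. In RNA from whole cultures, a change in the share of cells with a transcript and a change in its amount per cell cannot be told apart. Folds are on the scale of log2(intensity + 1) throughout.

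**Figure D1:**
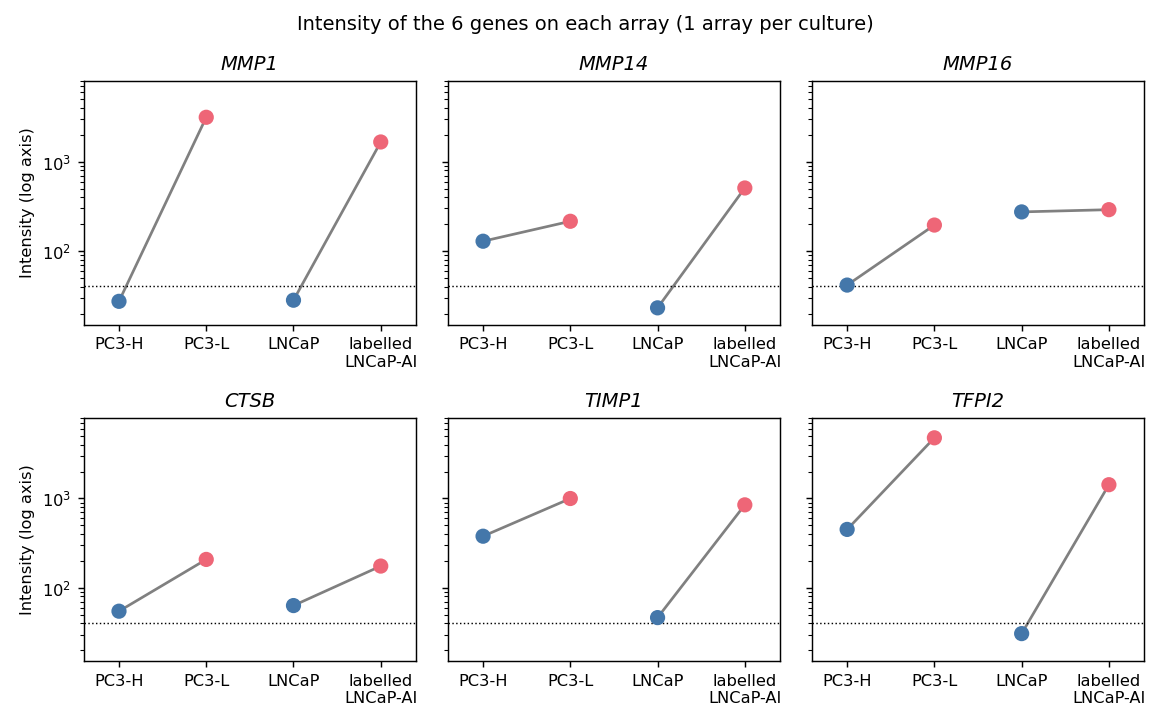
Intensity (log axis) of each of the 6 genes on the 4 arrays, 1 point per array, with a line joining the pair compared within each line label; blue marks arrays labelled high and red arrays labelled low for the laminin-binding glycan, and the dotted line is the median of the array medians over all probes. MMP1 is at the dim end on PC3-H and LNCaP, MMP14 and TFPI2 are below the dotted line only on LNCaP, where TIMP1 is just above it, and MMP16 is lowest on PC3-H.

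MMP1 was near the bottom of the intensity range on PC3-H and LNCaP, at 27.4 and 28.2, and bright on the other arrays, at 3143 on PC3-L and 1664 on the LNCaP-AI-labelled array. Its values were at the 23.8th and 26.4th percentile of all probes on PC3-H and LNCaP, and at the 99.8th and 99.6th percentile on the other arrays. The arrays thus fall into a dim and a bright pair with a wide gap between them. The difference was 111-fold in the PC3 pair, first among the genes higher on PC3-L, and 57.0-fold in the LNCaP pair, where it ranked 2. The substituted pair gave 108-fold. Between the bright arrays it was 1.89-fold lower on the LNCaP-AI-labelled array than on PC3-L, and the dim arrays differed by a log2 difference of 0.040.

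MMP14 was dimmest on LNCaP at 23.2, followed by 129 on PC3-H, with 216 on PC3-L and 508 on the LNCaP-AI-labelled array. LNCaP stands apart from the other 3 arrays, at the 10.4th percentile of its array, and PC3-H and PC3-L lie close together. The PC3 pair differed by 1.67-fold, which is within 2-fold, and the LNCaP pair by 21.1-fold. With PC3-L in place of the LNCaP-AI-labelled array, MMP14 was 8.96-fold higher than on LNCaP. It was also 2.35-fold higher on the LNCaP-AI-labelled array than on PC3-L, in a comparison in which 0.832% of 10942 genes were past 2-fold higher and 1.96% lower. MMP14 was the only 1 of the 6 past 2-fold higher there.

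MMP16 had another order, with 41.6 on PC3-H, 196 on PC3-L, 274 on LNCaP and 291 on the LNCaP-AI-labelled array. Here PC3-H is the array that stands apart, and the LNCaP pair is nearly level. The gene was 4.61-fold higher on PC3-L than on PC3-H and 1.06-fold higher on the LNCaP-AI-labelled array than on LNCaP. With PC3-L in that array's place the sign turned, to a log2 difference of −0.49, again within 2-fold. MMP14 and MMP16, the membrane-anchored enzymes of the set, were therefore past 2-fold in opposite pairs: MMP14 in the LNCaP pair and MMP16 in the PC3 pair.

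CTSB was 54.7 on PC3-H and 63.2 on LNCaP, against 208 on PC3-L and 175 on the LNCaP-AI-labelled array. It divides the arrays as MMP1 does, over a much smaller range: its highest value was 3.80 times its lowest. The PC3 pair differed by 3.75-fold and the LNCaP pair by 2.74-fold, or 3.25-fold with PC3-L in place of the LNCaP-AI-labelled array. The 2 arrays labelled low for the glycan differed by a log2 difference of −0.25.

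TIMP1, the metalloproteinase inhibitor, was 46.4 on LNCaP, 378 on PC3-H, 848 on the LNCaP-AI-labelled array and 998 on PC3-L. LNCaP is the low array, and the other 3 lie above the 97th percentile of their arrays. TIMP1 was 2.64-fold higher on PC3-L than on PC3-H and 17.9-fold higher on the LNCaP-AI-labelled array than on LNCaP. PC3-L in place of that array gave 21.1-fold.

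TFPI2, the Kunitz inhibitor, had the widest range of the 6, from 30.7 on LNCaP through 450 on PC3-H and 1424 on the LNCaP-AI-labelled array to 4768 on PC3-L. Every neighbouring step in this order is larger than 2-fold. The gene was 10.6-fold higher on PC3-L than on PC3-H, rank 8 among genes higher there, and 45.0-fold higher on the LNCaP-AI-labelled array than on LNCaP, rank 3. Against LNCaP, PC3-L was 150-fold higher. TFPI2 was 3.35-fold lower on the LNCaP-AI-labelled array than on PC3-L, the only 1 of the 6 past 2-fold lower in that comparison.

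**Figure D2:**
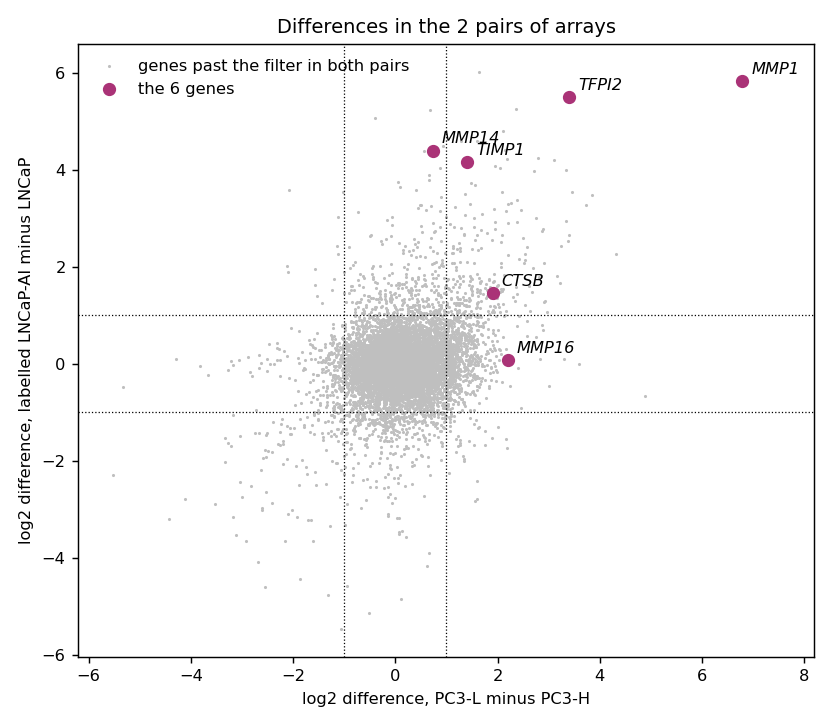
Each point is a gene that passed the filter in both pairs, by its log2 difference of PC3-L minus PC3-H (horizontal) and of the LNCaP-AI-labelled array minus LNCaP (vertical); dotted lines mark 2-fold and purple points are the 6 genes. MMP1, TFPI2, CTSB and TIMP1 lie past 2-fold higher in both pairs, MMP14 only in the LNCaP pair and MMP16 only in the PC3 pair.

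The arrays labelled high for the glycan, LNCaP and PC3-H, already differed at 4 of the 6 genes. Compared with PC3-H, LNCaP was 5.38-fold lower for MMP14, 7.99-fold lower for TIMP1 and 14.2-fold lower for TFPI2, and 6.46-fold higher for MMP16. Of 11156 genes 5.46% were past 2-fold higher and 4.49% lower in that comparison. CTSB was within 2-fold, with a log2 difference of 0.21, and MMP1 did not pass the filter because it was dim on both arrays. The 6 genes thus show 3 arrangements over the arrays. MMP1 and CTSB are low on PC3-H and LNCaP alike, MMP14, TIMP1 and TFPI2 are lowest on LNCaP with PC3-H next, and MMP16 is low on PC3-H. For the genes lowest on LNCaP, the direction in the LNCaP pair is the one that the PC3 markers CD44 and AXL take. MMP1 and CTSB take that direction in the LNCaP pair too. The LNCaP-AI-labelled array lies near PC3-L at KLK3, FOLH1, CD44, AXL and VIM. In the LNCaP pair the line of the cultures and the glycan label therefore cannot be told apart for any of the 6 genes. The androgen independence, charcoal-stripped serum, conditioned medium, motility and invasion named for LNCaP-AI cannot be told apart from these either. MMP16 was within 2-fold in this pair, with a log2 difference of 0.083.

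The stretch upstream of the start of MMP14, TIMP1 and TFPI2, the genes lowest on LNCaP, is printed to show what letters they share. The sequences are the RefSeq promoters of build GRCh38.p14, cut to the 250 bases before the gene's start, 5′ to 3′ on the gene's strand. Capitals mark the letters TGANTCA of an AP-1 motif and GGGCGG of an SP1 motif, or its reverse complement.
MMP14 (chr14:22836335-22836584, plus strand): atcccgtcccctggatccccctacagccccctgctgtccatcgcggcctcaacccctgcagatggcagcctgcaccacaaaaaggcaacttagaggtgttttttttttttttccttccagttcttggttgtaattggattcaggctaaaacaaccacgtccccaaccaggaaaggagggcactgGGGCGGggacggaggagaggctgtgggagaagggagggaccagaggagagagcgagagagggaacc
TIMP1 (chrX:47582186-47582435, plus strand): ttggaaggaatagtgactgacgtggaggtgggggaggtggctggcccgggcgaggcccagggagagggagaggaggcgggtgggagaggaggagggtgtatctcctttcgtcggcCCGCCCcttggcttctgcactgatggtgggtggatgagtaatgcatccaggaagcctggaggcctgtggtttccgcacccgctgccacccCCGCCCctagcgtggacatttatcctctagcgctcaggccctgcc
TFPI2 (chr7:93890754-93891003, minus strand): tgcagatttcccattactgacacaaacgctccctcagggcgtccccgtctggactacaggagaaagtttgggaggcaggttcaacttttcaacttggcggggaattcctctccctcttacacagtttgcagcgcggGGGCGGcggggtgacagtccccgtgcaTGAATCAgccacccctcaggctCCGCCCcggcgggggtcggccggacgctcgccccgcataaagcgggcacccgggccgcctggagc

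TFPI2 held the AP-1 letters once, as TGAATCA, 87 to 81 bases before the start, and MMP14 and TIMP1 held no exact match to them in this window. A variant site that departs from these fixed letters is not counted, so the absence of a match is not the absence of a site. No matches are given for MMP1, MMP16 and CTSB, so there is no contrast within the set. Of 35116 RefSeq promoters of 300 bases 7.71% held TGANTCA on either strand. The SP1 letters occurred in all 3 genes, once in MMP14 and 2 times each in TIMP1 and TFPI2, and in 45.0% of all promoters. The letters TATAAA (11.5% of promoters) and GGAATG, a TEAD motif (14.0%), matched in none of the 3. A loose NF-kappa-B motif with an unspecified middle matched in all 3 and in 58.7% of all promoters; in TIMP1 and TFPI2 it overlaps SP1 letters. These matches describe the letters and no binding was measured.

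MMP1 sits in a cluster of metalloproteinase genes on chromosome 11, and the metalloproteinase genes of the cluster read here did not share its pattern. Of the 6 protein-coding genes on either side, 5 metalloproteinase genes had a named probe: MMP20, MMP27, MMP8, MMP12 and MMP13. Their intensities lay between 21.1 and 27.2 on all 4 arrays, at the dim end, and 0 of the 5 passed the filter in the PC3 pair. MMP8, the neutrophil collagenase next but one to MMP1, was 25.2 on PC3-H, 25.7 on PC3-L, 24.9 on LNCaP and 25.6 on the LNCaP-AI-labelled array. MMP13, another collagenase, was between 22.3 and 25.6. The growth factor gene PDGFD, 6 genes away, was 58.5 on PC3-H, 33.6 on PC3-L, 28.2 on LNCaP and 59.95 on the LNCaP-AI-labelled array. It was thus lower on PC3-L, where MMP1 was brightest, but higher in the LNCaP pair as MMP1 was, with a log2 difference of 1.06. MMP10 and MMP3, the protein-coding genes directly beside MMP1, were not analysed here, and neither was MMP7.

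**Figure D3:**
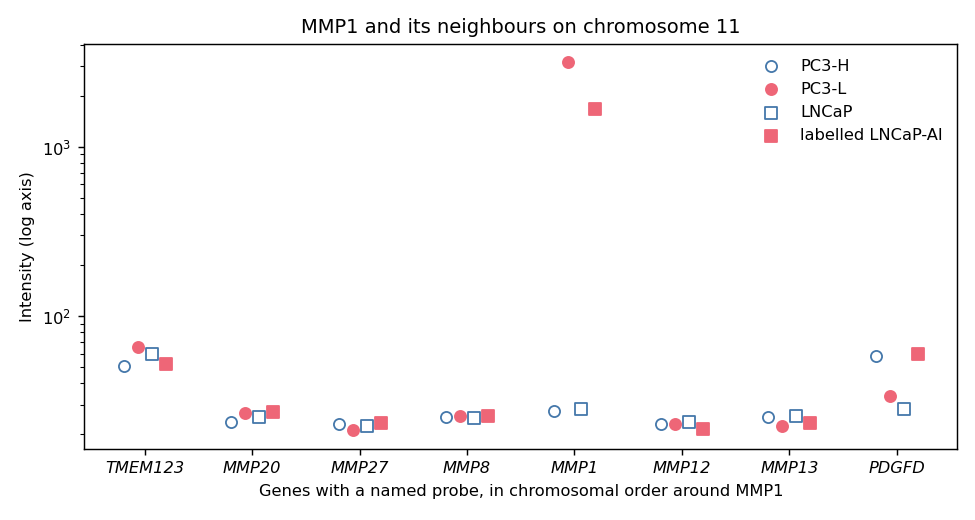
Intensity (log axis) on the 4 arrays of MMP1 and of those of the 6 protein-coding genes on either side that had a named probe, in chromosomal order; open symbols are arrays labelled high and filled symbols arrays labelled low for the glycan, and heights are compared between arrays only, not between genes. MMP1 splits into a dim and a bright pair, while MMP20, MMP27, MMP8, MMP12 and MMP13 stay between 21.1 and 27.2.

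The wider protease and inhibitor lists, without the 6 genes, held 64 genes, of which 45 had a named probe. In the PC3 pair 31 passed the filter, and 2 were past 2-fold higher and 3 lower, beside 8.58% and 3.77% of all genes. The median log2 difference there was −0.16 beside −0.020 over all genes. In the LNCaP pair 30 passed, 3 were higher and 3 lower, beside 5.45% and 5.13% of all genes, with a median of 0.095 beside 0.0048. In the substituted pair 4 were higher and 3 lower, beside 7.24% and 4.51% of all genes. The same shares over all genes stand beside the counts of each list below. Taken by list, the other metalloproteinases were past 2-fold in 0 of 7 in the PC3 pair (median −0.34). In the LNCaP pair 1 of 8 was lower and 0 higher (median 0.012). That 1 was MMP15, a further membrane-type enzyme, at 163 on LNCaP and 67.2 on the LNCaP-AI-labelled array, with 91.1 on PC3-H and 75.6 on PC3-L. The substituted pair also had 0 of 8 higher and 1 lower, MMP15 at 2.14-fold (median −0.14). The gelatinase genes MMP2 and MMP9 were not analysed here.

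Inhibitors of the TIMP family did not all go with TIMP1. TIMP2, which inhibits MMP14 and also forms the complex through which MMP14 activates the MMP2 precursor, was 501 on PC3-H, 413 on PC3-L, 179 on LNCaP and 1046 on the LNCaP-AI-labelled array. It was 5.80-fold higher on the LNCaP-AI-labelled array than on LNCaP, but 2.29-fold in the substituted pair, and the PC3 pair had a log2 difference of −0.28. TIMP4 was 56.6 on PC3-H and between 24.8 and 26.2 on the other 3 arrays, so it was 2.12-fold lower on PC3-L. TIMP3 stayed between 24.6 and 27.4 and did not pass the filter. Of the 5 genes listed as further metalloproteinase inhibitors, 1 of 3 past the filter was lower in the PC3 pair and 1 of 2 higher in the LNCaP pair, with medians of −0.28 and 1.45. TIMP2 was also the 1 of 2 higher in the substituted pair, where the median was 0.70.

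Among the other Kunitz-domain genes is TFPI, the inhibitor of the tissue factor pathway and the paralogue that TFPI2 is named after. Its direction was that of TFPI2 in the PC3 pair but not in the LNCaP pair. TFPI was 32.0 on PC3-H, 155 on PC3-L, 177 on LNCaP and 130 on the LNCaP-AI-labelled array. It was low on PC3-H alone, whereas TFPI2 was lowest on LNCaP. TFPI was 4.75-fold higher on PC3-L than on PC3-H and had a log2 difference of −0.45 in the LNCaP pair. APLP2, a membrane protein with a Kunitz domain, was 2.73-fold higher on PC3-L than on PC3-H, at 1477 against 539. In the PC3 pair 2 of the 4 genes of this list were past 2-fold higher and 0 lower (median 0.83), and in the LNCaP pair 0 of 4 were past it (median 0.22). The substituted pair had 1 of 4 higher, APLP2, and 0 lower (median 0.097).

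The other cysteine cathepsins did not share 1 arrangement with CTSB. CTSZ, which encodes a carboxypeptidase, was 241 on PC3-H, 45.2 on PC3-L, 129 on LNCaP and 55.6 on the LNCaP-AI-labelled array, so it was low on the arrays where CTSB was high, by 5.23-fold in the PC3 pair and 2.29-fold in the LNCaP pair. CTSC, the dipeptidyl peptidase that activates granule serine proteases, was 56.1 on LNCaP against 522 on PC3-H, with 824 on PC3-L and 841 on the LNCaP-AI-labelled array. It was 14.8-fold higher in the LNCaP pair and within 2-fold in the PC3 pair, an order of arrays in which LNCaP is lowest as for TIMP1. CTSH was 2.25-fold lower in the LNCaP pair. Over the list, 0 of 9 were higher and 1 lower in the PC3 pair (median 0.24), and 1 of 9 was higher and 2 lower in the LNCaP pair (median −0.14). The substituted pair again had CTSC higher (14.5-fold) and CTSZ (2.80-fold) and CTSH (2.53-fold) lower, with a median of −0.41.

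Cystatins inhibit cysteine cathepsins. CSTB, which acts inside the cell, was 354 on LNCaP against 1049 on PC3-H, with 1945 on PC3-L and 1460 on the LNCaP-AI-labelled array, 4.11-fold higher in the LNCaP pair. CST6, a secreted cystatin, was 283 on PC3-H and between 61.8 and 82.6 on the other 3 arrays, 4.53-fold lower on PC3-L. In the PC3 pair 0 of 8 cystatins were higher and 1 lower (median −0.25), and in the LNCaP pair 1 of 7 was higher and 0 lower (median 0.28). In the substituted pair CSTB was the 1 of 8 higher, by 5.48-fold, and 0 were lower (median −0.022). Of the 10 genes listed for plasminogen activation 1 had a named probe, PLG, which stayed between 23.0 and 25.7; the urokinase genes were not analysed here, and neither were the fibrillar collagens that MMP1 cuts.

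CTSB was set beside other lysosomal genes, as its protein works in that compartment. In the PC3 pair 1 of 10 was past 2-fold higher and 0 lower (median 0.11). It was HEXA, a subunit of hexosaminidase, which went from 46.1 on PC3-H to 125 on PC3-L. In the LNCaP pair 4 of 10 were higher and 1 lower (median 0.60), among them CTSA (5.56-fold), the aspartic cathepsin CTSD (2.54-fold), the peptidase TPP1 (2.30-fold) and the membrane protein LAMP1 (2.20-fold). In the substituted pair 1 of 10 was higher and 0 lower (median 0.052): CTSA stayed past 2-fold at 3.42-fold, whereas CTSD (1.29-fold), TPP1 (1.74-fold) and LAMP1 (1.63-fold) were within it. CD68, a lysosomal gene also used as a macrophage marker, was 290 on PC3-H, 630 on PC3-L, 102 on LNCaP and 553 on the LNCaP-AI-labelled array, higher on the same arrays as CTSB. The other leukocyte markers with a named probe were nearly level over the arrays: CD14 lay between 26.9 and 32.1, at the dim end, and CSF1R between 44.1 and 46.4, just above the array medians. The summed intensity of the 3 measured of 6 leukocyte markers was 364 and 702 in the PC3 pair and 178 and 630 in the LNCaP pair, and its part in the CTSB difference was not tested.

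Fibroblasts are a common source of MMP1 and TIMP1. Of 8 fibroblast markers 2 had a named probe, THY1 between 47.1 and 51.7 and LUM between 19.997 and 24.5. Their summed intensity was 76.1 and 71.7 in the PC3 pair and 67.3 and 70.2 in the LNCaP pair. LUM was at the dim end and did not pass the filter, and THY1 was only just above the array medians. These probes can therefore show little, and a part of fibroblasts in the MMP1 difference was not tested. The endothelial sum was between 137 and 170 on the 4 arrays. The perineurial and Schwann cell sum was 174 and 125 in the PC3 pair and 269 and 140 in the LNCaP pair; in it ERBB3, which epithelial cells also express, was past 2-fold lower in both pairs, while SOX10 lay between 54.2 and 60.8.

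AP-1, a dimer of FOS and JUN proteins, and the ETS factors are textbook activators of the MMP1 promoter. JUN was 132 on PC3-H, 407 on PC3-L, 199 on LNCaP and 325 on the LNCaP-AI-labelled array, so its order over the arrays was that of MMP1 and CTSB. It was 3.06-fold higher in the PC3 pair and within 2-fold in the LNCaP pair, with a log2 difference of 0.70. FOSL1 was 34.8 on LNCaP and 1314 on PC3-H, with 1002 on PC3-L and 1192 on the LNCaP-AI-labelled array, bright on PC3-H where MMP1 was dim. In the LNCaP pair FOSL1 was 33.4-fold and FOSL2 2.25-fold higher and the stress-induced ATF3 2.22-fold lower. Of 8 AP-1 genes 1 was higher and 0 lower in the PC3 pair (median −0.20), and 2 were higher and 1 lower in the LNCaP pair (median −0.064). In the substituted pair 3 were higher, FOSL1 (28.0-fold), FOSL2 (2.15-fold) and JUN (2.03-fold), and 1 lower, ATF3 (2.15-fold), with a median of 0.12.

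Of 9 ETS factors 4 were past 2-fold higher and 3 lower in each pair, with medians of −0.22 and 0.19. The substituted pair had the same counts and a median of 0.82. The epithelial factors EHF and SPDEF were lower in both pairs; EHF was 202 on PC3-H, 33.7 on PC3-L, 902 on LNCaP and 36.5 on the LNCaP-AI-labelled array. ETS1 was 185 on PC3-H, 430 on PC3-L, 42.6 on LNCaP and 225 on the LNCaP-AI-labelled array, with LNCaP lowest as for TIMP1 and TFPI2. It was 5.17-fold higher in the LNCaP pair and 9.87-fold in the substituted pair. FLI1 was 42.1 and 34.7 on PC3-H and LNCaP against 146 and 111 on PC3-L and the LNCaP-AI-labelled array, and so divided the arrays as MMP1 and CTSB did. ETV1 and ETV4 were past 2-fold in opposite directions in the 2 pairs.

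**Figure D4:**
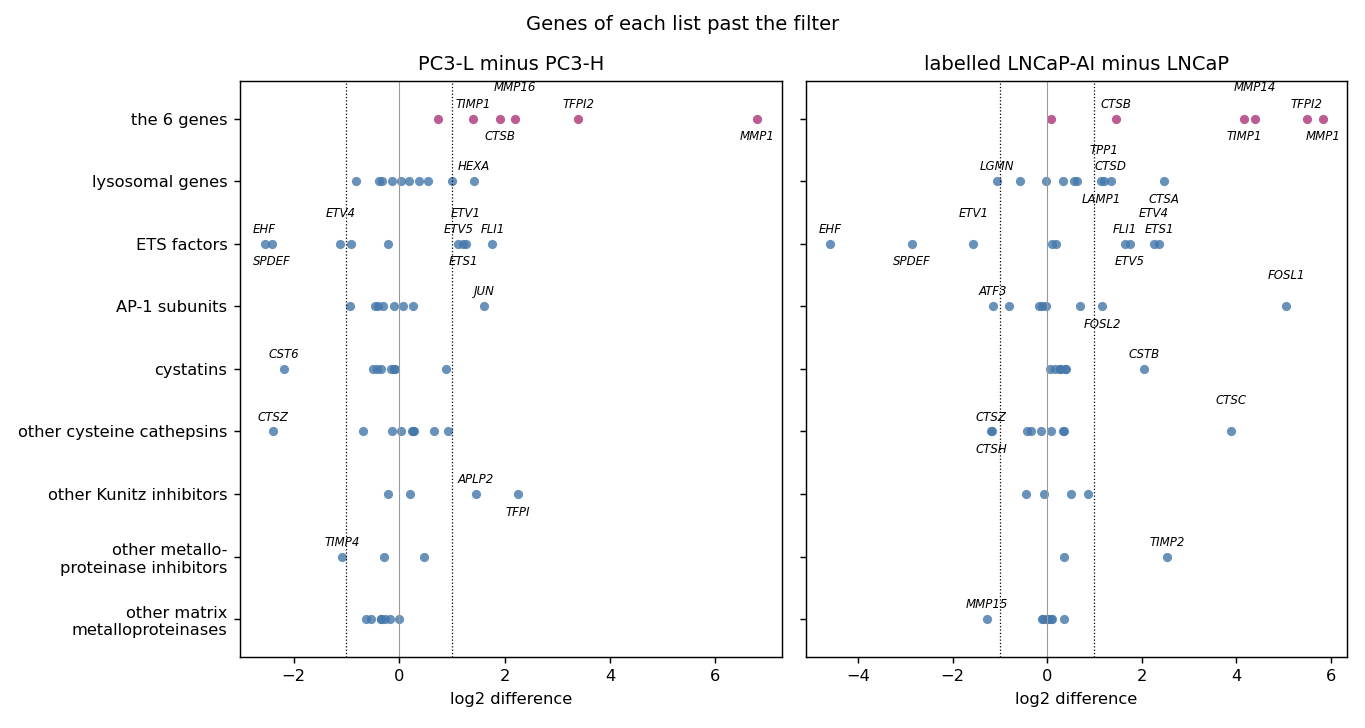
log2 difference of each gene past the filter, by list, in the PC3 pair (left) and the LNCaP pair (right), 1 point per gene; dotted lines mark 2-fold, genes past it are named, and purple points are the 6 genes. The other metalloproteinases stay within 2-fold except MMP15 in the LNCaP pair, and those past the filter in the PC3 pair all lie below 0. Cathepsins, AP-1 subunits, ETS factors and lysosomal genes hold points past 2-fold in both directions in the LNCaP pair.

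Partners of the 6 proteins were read from 8 measured genes of a list of 10. F2R, the thrombin receptor that MMP1 can also cleave, was 54.8 on PC3-H, 85.2 on PC3-L, 83.9 on LNCaP and 195 on the LNCaP-AI-labelled array, 2.30-fold higher in the LNCaP pair. The tetraspanin gene CD151 was 2.61-fold higher in the same pair. FURIN, the convertase that activates MMP14, was 160 and 168 in the PC3 pair and 109 and 198 in the LNCaP pair, within 2-fold in each. BSG, the surface protein known as an inducer of metalloproteinases, lay between 689 and 896 on the 4 arrays. Past the filter, 0 of 7 were past 2-fold in the PC3 pair (median −0.19), and 2 were higher and 0 lower in the LNCaP pair (median 0.85). In the substituted pair 0 of 7 were past 2-fold (median 0.022), with F2R at 1.02-fold and CD151 at 1.84-fold, so both calls rest on the LNCaP-AI-labelled array.

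The genes whose pattern over the 4 arrays was most like each of the 6 were found among 11509 genes, by the root mean square distance of log2 values centred on their mean over the arrays. With 4 points per gene this is a description only, and 1 minus Pearson's correlation, which ignores the size of a pattern, shared 0 of the 18 genes it named. CTSB had the closest neighbours, SESTD1 at 0.050, LAYN at 0.064 and LIMS3, a gene with near-identical copies that its probe may not separate, at 0.072; SESTD1 was 92.0 on PC3-H, 382 on PC3-L, 111 on LNCaP and 313 on the LNCaP-AI-labelled array. MMP14 was nearest to TGFB1I1 (0.15), CD109 (0.25) and the fibrillin gene FBN2 (0.35). TIMP1 was nearest to the membrane peptidase gene ANPEP (0.17), GLIPR1 (0.18) and MYOF (0.21). ANPEP was 421 on PC3-H, 1278 on PC3-L, 49.2 on LNCaP and 1219 on the LNCaP-AI-labelled array.

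MMP16 was nearest to CLGN (0.33), TFPI (0.33) and HEXA (0.43), and each of these was lowest on PC3-H as MMP16 was. HEXA was 46.1 on PC3-H, 125 on PC3-L, 131 on LNCaP and 204 on the LNCaP-AI-labelled array. TFPI2 was nearest to PLEK2 (0.66), ANXA1 (0.67) and the matrix gene TNC (0.69). For MMP1 the nearest genes were far off, BMP2 at 1.33, EMP1 at 1.39 and AJAP1 at 1.42. BMP2, a bone morphogenetic protein, was 44.3 on PC3-H, 648 on PC3-L, 34.3 on LNCaP and 393 on the LNCaP-AI-labelled array, the same split into dim and bright arrays over a smaller range. Among the 6 genes themselves MMP14 and TIMP1 were closest to each other (0.57), followed by MMP16 and CTSB (0.96) and by TIMP1 and TFPI2 (1.03), and MMP16 and TFPI2 were farthest apart (2.95). This distance depends on the size of a pattern. MMP16 and CTSB have the smallest ranges of the 6, and their arrangements differ, with LNCaP at 274 for MMP16 and 63.2 for CTSB.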

How the data were processed

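The deposited table gives 1 intensity per probe and array, linear as judged from the values. Per the labels' protocols, total RNA was labelled with biotin for Affymetrix whole-transcript arrays. GeneSpring GX 12.6 is named in the series' design text, with the 2 pairs and thresholds of 2-fold and a false discovery rate of 10%; with 1 array per group the latter was not applied. Probe summarisation, background correction and normalization are not given in the sources used here.

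Groups came from the sample titles. Of 37934 probes 14952 had 1 gene symbol in the platform annotation, for 14006 genes; the probe with the highest mean stood for a gene. Differences are of log2(intensity + 1), over genes brighter, on the higher array of a pair, than that array's 40th percentile, and were counted past 2-fold with Python 3.11.15 and pandas 2.3.3. Counting and profile distances were tested on simulated data.

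The 6 genes and the lists were chosen with earlier results of these data known. Genes were named by rule: the 6 genes, up to 4 genes per list and pair with the largest differences past 2-fold, the 3 nearest profiles of each of the 6, the neighbours of MMP1 and line markers. Other genes named, such as MMP8, TIMP3 or BSG, are list members chosen after their values were seen. Alternatives were another pseudocount, scaling, probe choice and filter.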

Additional observations from a re-analysis of the deposited data

Results flagged for a closer look

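ETV1 and ETV4, close relatives in the ETS family, went past 2-fold in opposite directions in the 2 pairs. ETV1 had a log2 difference of 1.26 for PC3-L minus PC3-H and of −1.56 for the LNCaP-AI-labelled array minus LNCaP. ETV4 had −1.11 in the first pair and 2.26 in the second. The difference between the pairs was not tested, since each has 1 array per side. ETV1 was 41.0 on PC3-H, 99.8 on PC3-L, 363 on LNCaP and 122 on the LNCaP-AI-labelled array, and ETV4 was 313, 144, 40.04 and 196 on the same arrays, so for each gene PC3-L and the LNCaP-AI-labelled array lie between PC3-H and LNCaP. None of the 6 protease and inhibitor genes was past 2-fold in opposite directions.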

How the results depend on the processing

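Over a pseudocount of 16 or none, median centring, quantile normalization, the mean of a gene's probes, and PC3-L in place of the LNCaP-AI-labelled array (chosen after seeing the data), 125 of 126 recomputed differences of the 6 genes kept their side of 2-fold. The exception was MMP1 between the LNCaP-AI-labelled array and PC3-L, which passed 2-fold under quantile normalization, with a log2 difference of −1.04. The mean of a gene's probes could not move any of these differences, since each of the 6 genes had 1 probe. PC3-L in place of the LNCaP-AI-labelled array changes the sample and not the processing. The tally therefore includes differences that do not test the processing. For MMP1 the log2 difference ranged from 6.19 to 6.92 in the PC3 pair, and for TFPI2 in the LNCaP pair from 4.95 to 7.23. Counts of genes past 2-fold stayed within 1.5 times under these settings and with no filter or one at the 60th percentile. The nearest genes changed entirely with the measure: by 1 minus Pearson's correlation over the 4 arrays, 0 of 18 were shared. No paired analysis was possible because each group had 1 array and the labels give no shared replicate numbers. Values near the lowest intensity bound the dim side of MMP1 on PC3-H and LNCaP, and of MMP14 and TFPI2 on LNCaP alone, so folds against those arrays may be understated.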
